A study of Mus musculus with 59 samples.

Results

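The unfolded protein response genes described here are 10 genes chosen by name, Hspa5, Hsp90b1, Calr, Pdia4, Manf, Creld2, Sdf2l1, Dnajb9, Xbp1 and Ddit3, out of 21935 genes in the deposited count table. All 10 were present once in the table and all 10 passed the filter on low counts in each of the 3 brain regions. The libraries came from C57BL/6 mice that received IP118/PY115 or vehicle intraperitoneally and were killed 4 h later. The series concerns joint agonism at the receptors for PYY and GLP-1, gut hormones that reduce feeding, in obese-diabetic mice. The labels give no dose, diet, age or structure for IP118/PY115, and name no transgene. Frozen brains were sectioned at 10 µm, and 4 mm² of each region per animal was taken by laser capture, which cuts out tissue with all the cell types in it. There were 10 treated and 10 vehicle libraries from the paraventricular nucleus of the hypothalamus (PVN), 10 treated and 9 vehicle libraries from the hypothalamic arcuate nucleus (ARC), and 10 treated and 10 vehicle libraries from the nucleus of the solitary tract in the brainstem (NTS). Library totals ran from 3964093 to 28510118 counts. In bulk tissue of this kind, fewer cells of a type and less RNA per cell cannot be told apart.

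The unfolded protein response is the programme a cell starts when unfolded protein builds up in the endoplasmic reticulum (ER). The sensor kinases IRE1 and PERK and the membrane-bound factor ATF6 carry the signal: IRE1 splices the mRNA of Xbp1, PERK raises translation of ATF4, which drives Ddit3, and cleaved ATF6 enters the nucleus with XBP1 to switch on chaperone genes. Neurons that make large amounts of secreted peptide, such as the magnocellular vasopressin neurons of the PVN, pass much of that load through the ER.

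Of the 10 genes, 9 had a promoter in the RefSeq table, given as 250 bases before to 50 bases after the start on GRCm38.p6. The ER stress response element, which ATF6 and the factor NF-Y are known to bind, was searched on both strands as CCAAT and CCACG with any 9 bases between them. It lay in 4 of the 9 promoters, those of Hspa5, Calr, Hsp90b1 and Creld2, and in 39 of all 32851 promoters of that length (0.119%). The stretches that hold it are shown because they are the feature that sets these 4 genes apart from the other promoters of the group, with the CCAAT and CCACG parts, or their reverse complements ATTGG and CGTGG, in capitals.
Hspa5 (chr2:34772005-34772063, plus strand): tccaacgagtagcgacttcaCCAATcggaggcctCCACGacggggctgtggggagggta
Calr (chr8:84847055-84847113, minus strand): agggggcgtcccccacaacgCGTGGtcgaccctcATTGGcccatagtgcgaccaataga
Hsp90b1 (chr10:86705513-86705676, minus strand): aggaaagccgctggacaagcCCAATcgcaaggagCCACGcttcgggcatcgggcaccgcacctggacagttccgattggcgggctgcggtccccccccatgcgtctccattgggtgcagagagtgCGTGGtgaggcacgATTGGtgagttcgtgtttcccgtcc
Creld2 (chr15:88819500-88819558, plus strand): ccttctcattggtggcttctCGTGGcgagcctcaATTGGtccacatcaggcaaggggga
Hsp90b1 held the element in both orientations and the other 3 genes held it once. In Hspa5 it began 65 bases before the start, in Calr 162, in Creld2 126, and in Hsp90b1 212 and 107 bases before it. The 39 promoters belonged to 37 genes, of which 10 were on the lists of ER genes used here: these 4 genes and Canx, Derl3, Dnajc3, Ero1b, Pdia6 and Syvn1. None of the 9 promoters held ATTGG and CCACG with 1 base between them (0.0365% of all promoters), TGACGTGG (0.676%) or the amino acid response element TGATGNAAN (3.95%). At shares this low, absence from 9 promoters says little about these genes, and bases more than 250 before the start were not searched. The CCAAT part alone lay in 8 of the 9 promoters, against 37.4% of all promoters, and CCACG alone in 7, against 32.8%.

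Each dissection carried the genes that mark its nucleus. The summed level of the 7 PVN markers was 9077 to 21815 CPM (counts scaled to a common library total) in vehicle PVN libraries, and at most 683 CPM in vehicle ARC and 34.9 CPM in vehicle NTS libraries. The 7 ARC markers summed to 2701 to 4053 CPM in vehicle ARC, and to at most 167 CPM in vehicle PVN and 841 CPM in vehicle NTS, and the 8 NTS markers to 1013 to 1519 CPM in vehicle NTS, and to at most 99.8 CPM in vehicle PVN and 152 CPM in vehicle ARC. Within the lists of neuron, oligodendrocyte and astrocyte markers no gene was at 0 in any group. The libraries numbered 1, which are the first of each group in the order of deposition, stood apart and went against their labels in PVN and NTS. In NTS the activity gene Fosb had 0.857 CPM in treated library 1, while the remaining 9 treated libraries had 18.9 to 48.8 CPM, and 39.7 CPM in vehicle library 1, while the remaining 9 vehicle libraries had 0.141 to 2.70 CPM. Zbtb16, a transcription factor gene induced by glucocorticoids, was at 32.96 CPM in PVN treated library 1, below the other 9 (44.9 to 74.9 CPM), and at 45.3 CPM in PVN vehicle library 1, above the other 9 (11.5 to 36.1 CPM). Each of these 4 values lay within the range of the other 9 libraries of the opposite treatment, as it would if the treated and the vehicle library numbered 1 were exchanged; an exchange was not tested. In ARC the picture was mixed: Zbtb16 in vehicle library 1 (49.2 CPM) lay above the other 8 (9.48 to 20.3 CPM), but in treated library 1 (29.6 CPM) within the other 9 (21.8 to 58.2 CPM), while Fosb in treated library 1 (2.07 CPM) lay below the other 9 (3.07 to 12.8 CPM), but in vehicle library 1 (4.27 CPM) within the other 8 (0.790 to 6.69 CPM). All libraries were kept under their labels, so every treatment estimate and count of calls below rests on those labels, and results are given without the 6 libraries numbered 1 where that changes them. These libraries were singled out by values measured in them, and p-values without them are given as a description.

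**Figure D1:**
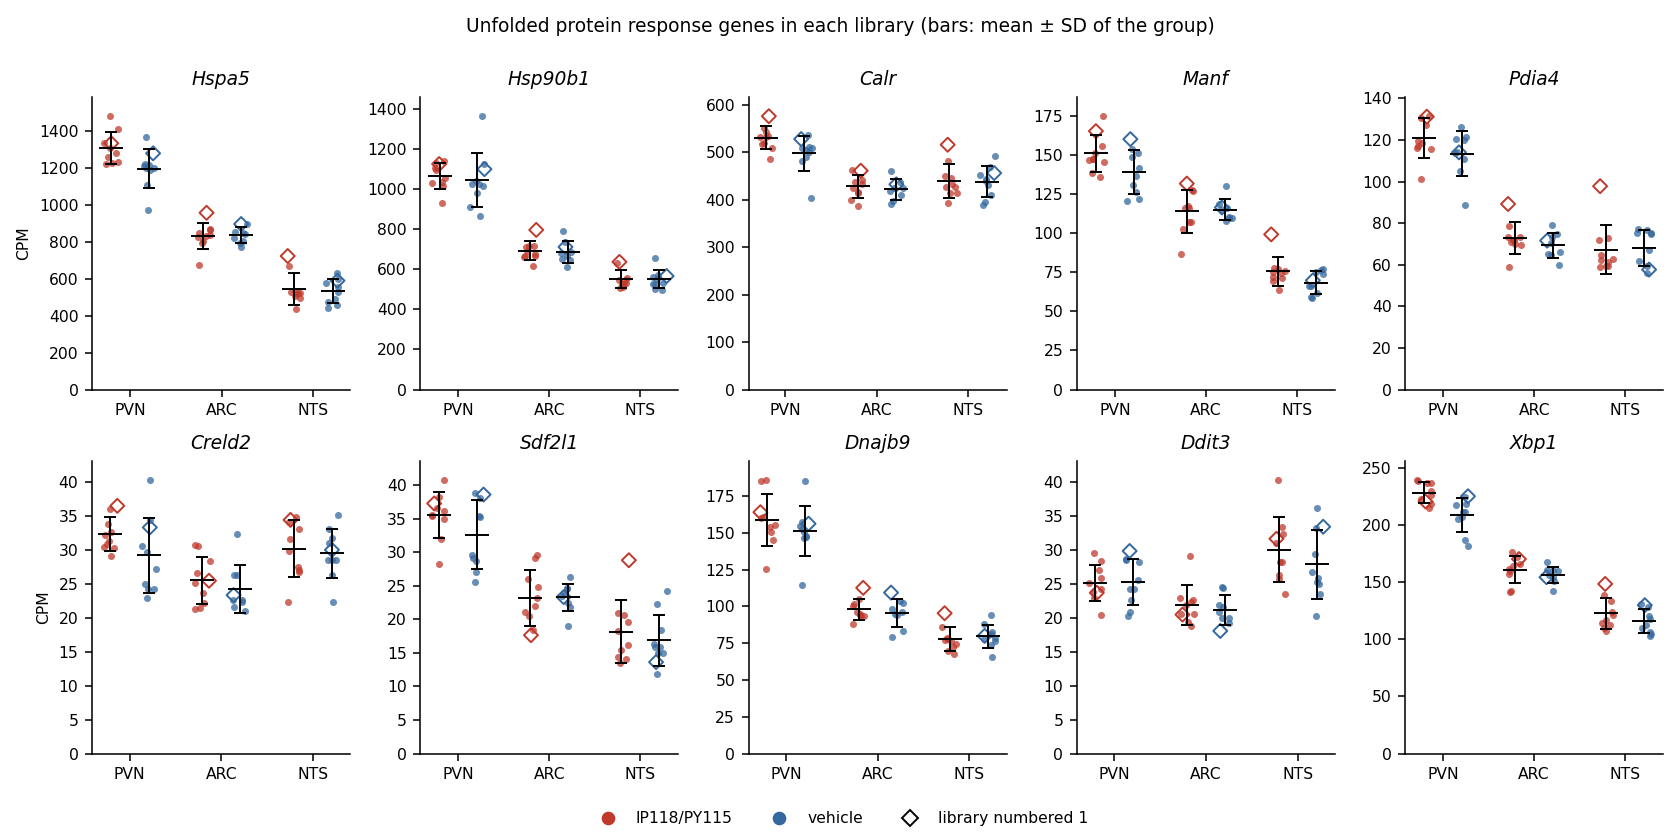
CPM of each gene (y axis, from 0) in every library by region (x axis), IP118/PY115 in red to the left of vehicle in blue. Points are libraries, open diamonds the libraries numbered 1 and bars the group mean ± SD. Most genes step down from PVN over ARC to NTS, and treated and vehicle libraries overlap for each gene in each region. Of all 14379 genes, 1 did not overlap between treatments in the PVN, and 0 in the ARC and the NTS.

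The levels of the genes spanned a wide range, and for each of them the widest log2 difference between regions exceeded that between treatments. Per kilobase of exon, the most abundant in vehicle PVN were Hspa5, which encodes BiP, the Hsp70 chaperone of the ER lumen, at 283 ± 24.4 CPM per kb (SD, n = 10), and Hsp90b1, which encodes the ER Hsp90 chaperone GRP94, at 259 ± 33.7 CPM per kb. Their ranges of spread overlapped. Calr, for the calcium-binding lectin chaperone calreticulin, followed at 173 ± 12.8 CPM per kb.
All other members were far lower per kilobase. Xbp1, the transcription factor whose mRNA IRE1 splices, was at 64.4 ± 4.51 and Dnajb9, for the BiP co-chaperone ERdj4, at 59.3 ± 6.74 CPM per kb in vehicle PVN, which did not differ beyond their spread. Pdia4, a protein disulfide isomerase gene, was at 47.3 ± 4.44, Manf, for a secreted factor that binds BiP, at 39.5 ± 3.98, and Sdf2l1, for a partner of ER co-chaperones, at 29.4 ± 4.64 CPM per kb. The lowest were Creld2, for an ER-resident protein with EGF-like domains, at 21.3 ± 4.07, and Ddit3, for the PERK-branch factor CHOP, at 14.8 ± 1.99 CPM per kb.
The order changed in the brainstem. In vehicle NTS, Calr at 152 ± 11.3 CPM per kb, Hsp90b1 at 136 ± 11.3 and Hspa5 at 126 ± 15.6 headed the list in that order, with overlapping spread. In vehicle ARC the order of these 3 was that of the PVN, at 198 ± 10.3 for Hspa5, 170 ± 13.5 for Hsp90b1 and 146 ± 7.40 CPM per kb for Calr. The gene counts do not separate spliced from unspliced Xbp1 mRNA, so activity of IRE1 was not measured.

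In vehicle mice the ER chaperone genes were highest in the PVN. Between PVN and ARC, 10 of 10 genes were higher in PVN at an adjusted p under 0.05 by edgeR's quasi-likelihood test, in which 46% of all 14379 genes were called (24.8% higher and 21.1% lower in PVN). Over all genes that was 3572 higher and 3038 lower, and with scaling by library totals alone 2849 higher and 4006 lower. The median log2 difference of the 10 was 0.45, against 0.01 over all genes tested. Between PVN and NTS, 8 of 10 were higher in PVN, where 56.1% of all genes were called (28.3% higher and 27.8% lower), with a median of 0.89, against 0.0016 over all genes. Between ARC and NTS, 6 were higher and 2 lower in ARC, where 61.7% of all genes were called (30.2% higher and 31.5% lower), with a median of 0.29, against -0.0057 over all genes. Calls were thus frequent between these regions for genes of any kind. Each animal gave tissue of all 3 regions, the labels do not say which libraries belong together, and the test takes them as independent.

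Hspa5 (chr2:34771970-34777547, plus strand) had the widest difference of the group. In the PVN its level had a lowest, median and highest value of 1223, 1293 and 1481 CPM in treated and 975, 1206 and 1371 CPM in vehicle libraries. In the ARC these were 674, 836 and 958 CPM in treated and 773, 845 and 897 CPM in vehicle libraries, and in the NTS 436, 523 and 724 CPM in treated and 443, 542 and 630 CPM in vehicle libraries. The 3 vehicle groups did not overlap. The vehicle PVN mean was 2.24 times the NTS mean and 1.43 times the ARC mean, with log2 differences of 1.17 ± 0.06 (SE; adjusted p = 1.3e-24, edgeR) and 0.52 ± 0.07 (adjusted p = 8.2e-10, edgeR).

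The partner chaperones followed the same order. Hsp90b1 (chr10:86690209-86705509, minus strand) had vehicle means of 1044 ± 136 CPM in PVN, 686 ± 54.3 CPM in ARC and 549.6 ± 45.5 CPM in NTS (SD, n = 10, 9 and 10). Its lowest PVN vehicle library, at 865 CPM, lay above its highest ARC and NTS vehicle libraries, at 792 and 657 CPM. Dnajb9 (chr12:44205559-44210326, minus strand) averaged 151 ± 17.2 CPM in PVN, 95.7 ± 9.59 CPM in ARC and 79.8 ± 7.76 CPM in NTS, and its PVN vehicle libraries also lay apart from both other regions. Its log2 difference was 0.66 ± 0.07 for PVN over ARC and 0.93 ± 0.07 for PVN over NTS.
Xbp1 (chr11:5520659-5525893, plus strand) averaged 209 ± 14.7 CPM in vehicle PVN, 157 ± 7.20 CPM in ARC and 116 ± 10.7 CPM in NTS. It was 1 of only 2 genes of the group, with Hspa5, whose 3 vehicle groups were all free of overlap with each other. Manf (chr9:106838312-106891979, minus strand) averaged 139 ± 14.02 CPM in PVN, 115 ± 6.82 CPM in ARC and 68.4 ± 7.10 CPM in NTS; its PVN and ARC libraries overlapped, and both stood above the NTS. Its gene body overlaps Dcaf1 on the other strand and Rbm15b on its own, and how the authors assigned reads there is not given in the sources used here.

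Pdia4 (chr6:47796141-47813430, minus strand) set the PVN apart from both other regions, which did not differ detectably from each other. Its vehicle means were 113 ± 10.7 CPM in PVN, 69.5 ± 6.02 CPM in ARC and 68.1 ± 8.68 CPM in NTS. The ARC over NTS log2 difference was 0.03 ± 0.07 (adjusted p = 0.751, edgeR). Sdf2l1 (chr16:17130138-17132383, minus strand) averaged 32.6 ± 5.14 CPM in PVN, 23.3 ± 2.06 CPM in ARC and 16.9 ± 3.79 CPM in NTS, and was called in all 3 contrasts.

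Calr, Creld2 and Ddit3 departed from that order. Calr (chr8:84841850-84846934, minus strand) was nearly even across the regions, at 497 ± 36.8 CPM in vehicle PVN, 421 ± 21.3 CPM in ARC and 438 ± 32.7 CPM in NTS. Its PVN level was 1.18 times that of ARC and 1.14 times that of NTS, both called, and ARC over NTS was not called (log2 difference -0.05 ± 0.05, adjusted p = 0.309, edgeR).
Creld2 (chr15:88819646-88826683, plus strand) had similar vehicle levels in PVN and NTS, at 29.1 ± 5.55 CPM and 29.5 ± 3.61 CPM, and was lowest in ARC, at 24.2 ± 3.54 CPM. Its log2 difference was -0.01 ± 0.09 for PVN over NTS (adjusted p = 0.921, edgeR) and -0.28 ± 0.09 for ARC over NTS (adjusted p = 0.0064, edgeR). Ddit3 (chr10:127290774-127296288, plus strand) had its highest mean in the NTS, at 25.3 ± 3.41 CPM in vehicle PVN, 21.2 ± 2.21 CPM in ARC and 27.9 ± 5.05 CPM in NTS. Its log2 difference was -0.39 ± 0.09 for ARC over NTS (adjusted p = 2.2e-04, edgeR) and -0.13 ± 0.09 for PVN over NTS (adjusted p = 0.210, edgeR). Ddit3 lies across Mars on the other strand, so part of its counts may belong there. No vehicle library of the ARC reached the NTS median of Ddit3, yet the vehicle groups overlapped for Calr, Creld2 and Ddit3 in every pair of regions.

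**Figure D2:**
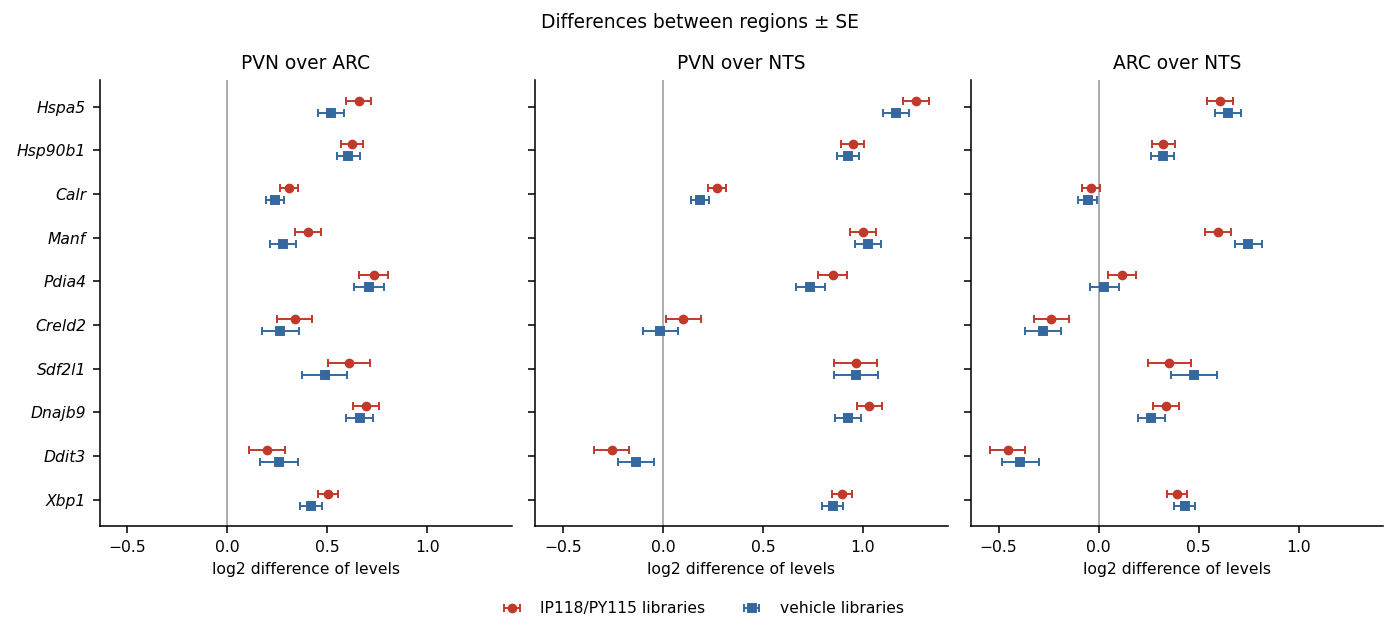
Log2 difference of levels (x axis) between regions for each gene (rows), with IP118/PY115 libraries in red above vehicle libraries in blue and bars of ± SE. Hspa5 lies farthest to the right for PVN over NTS, at 1.17 in vehicle libraries, and Ddit3 lies left of 0 for both contrasts with NTS.

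Groups that did not overlap were counted beside all genes. Between PVN and ARC vehicle libraries, 5 of the 10 genes (Hspa5, Hsp90b1, Pdia4, Dnajb9 and Xbp1) did not overlap, against 11.6% of all genes. Between PVN and NTS these 5 together with Manf and Sdf2l1 did not overlap, against 13.2% of all genes. Between ARC and NTS, Hspa5, Manf and Xbp1 did not overlap, against 22.6%. By overlap the pattern stood only in part in treated libraries. Between treated PVN and ARC the same 5 genes together with Calr and Manf did not overlap, against 13.5% of all genes. Between treated PVN and NTS the genes of the vehicle contrast except Sdf2l1 did not overlap, against 2880 of 14379 genes. Between treated ARC and NTS all 10 genes overlapped, while 18.9% of all genes did not. For Hspa5, Manf and Xbp1, 9, 9 and 8 of the 10 treated ARC libraries lay above the highest treated NTS library. By calls the regional pattern stood in treated libraries too. There 9, 9 and 8 of the 10 genes were called for PVN over ARC, PVN over NTS and ARC over NTS, beside 48.7%, 58.8% and 63.8% of all genes. The exception between PVN and ARC was Ddit3 (0.20 ± 0.09, adjusted p = 0.0597, edgeR), and between PVN and NTS Ddit3 was lower in treated PVN (-0.26 ± 0.09, adjusted p = 0.0105, edgeR).

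Cell type markers differed between the regions as well. The summed level of 9 oligodendrocyte markers was 591 to 902 CPM in vehicle PVN, 306 to 879 CPM in ARC and 1417 to 4303 CPM in NTS. That of 5 neuronal markers was 2224 to 2683 CPM in PVN, 1725 to 2040 CPM in ARC and 2811 to 3375 CPM in NTS. That of 6 astrocyte markers was 1104 to 1968, 644 to 857 and 1928 to 2742 CPM, and that of 5 endothelial markers 294 to 427, 74.0 to 107 and 152 to 208 CPM, in the same order of regions. With scores of the neuronal and oligodendrocyte markers as covariates, 8 genes were called for PVN over ARC, 7 for PVN over NTS and 1, Manf, for ARC over NTS, beside 34.5%, 37.1% and 20.1% of all genes. The Hspa5 difference was then 0.66 ± 0.08 for PVN over ARC, 0.96 ± 0.09 for PVN over NTS and 0.30 ± 0.13 for ARC over NTS (adjusted p = 0.0954, edgeR). Creld2 and Ddit3 lost their call between PVN and ARC with these covariates, with scaling by library totals alone and without the libraries numbered 1, and Creld2 also without the 3 libraries whose total was under 0.5 of the median of their region.

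The other ER genes were mostly higher in PVN than in NTS as well, and fewer were called higher against ARC. The ATF4 targets were not higher in PVN than in NTS as a list. The other genes comprised 128 on 7 lists, of which 126 were tested between regions: 63 were higher and 11 lower in vehicle PVN than in ARC, 80 higher and 15 lower in PVN than in NTS, and 65 higher and 29 lower in ARC than in NTS. The shares of all genes called higher and lower were 24.8% and 21.1%, 28.3% and 27.8%, and 30.2% and 31.5% in these 3 contrasts. The median log2 differences of the 126 were 0.19, 0.30 and 0.19. Of 27 ER chaperones and folding enzymes, 23 were higher and 1 lower in PVN than in NTS, and of 26 genes of ER entry, glycosylation and export, 22 were higher and 0 lower. The counts were 7 higher and 1 lower of 9 sensors, 6 and 3 of 10 transcription factors, and 14 and 3 of 20 genes of quality control and degradation, in the same contrast. For PVN over ARC, quality control and degradation had 5 higher and 2 lower of 20 (median 0.035). That share was near the 24.8% of all genes called higher. For ARC over NTS the transcription factors had 3 higher and 4 lower, with a median of -0.05. Of 22 targets of ATF4 and the integrated stress response, 13 were higher and 2 lower in PVN than in ARC (median 0.21), 2 were higher and 7 lower in PVN than in NTS (median -0.10), where 7 of 22 lower is near the 27.8% of all genes, and 1 was higher and 13 lower in ARC than in NTS (median -0.28), beside 31.5% of all genes lower. Of 12 cytosolic heat shock genes, which belong to the stress response of the cytosol, 0 were higher and 1 was lower in PVN than in ARC, and 6 were higher and 0 lower in PVN than in NTS.

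Ern1, which encodes the sensor IRE1, had the widest difference between PVN and NTS, at 65.5 ± 14.8 CPM in vehicle PVN and 13.1 ± 3.27 CPM in NTS (log2 difference 2.31 ± 0.11). Creb3l2, for a membrane-bound transcription factor related to ATF6, followed at 66.0 ± 13.4 CPM in PVN and 15.3 ± 1.38 CPM in NTS (2.11 ± 0.10), and its relative Creb3l1 at 9.28 ± 4.20 and 2.89 ± 0.795 CPM (1.70 ± 0.17). Hyou1, for an ER chaperone of the Hsp110 type, was at 528 ± 85.7 CPM in PVN and 222 ± 22.01 CPM in NTS (1.25 ± 0.07). These 4 were higher in PVN.
Slc7a11, for the cystine importer, went the other way, at 50.9 ± 9.08 CPM in PVN and 149.8 ± 38.5 CPM in NTS (-1.56 ± 0.14). Between PVN and ARC the named genes were Eif2ak3, for the sensor PERK (1.21 ± 0.09), the amino acid transporters Slc7a11 (1.03 ± 0.15) and Slc7a5 (0.97 ± 0.07), the serine synthesis gene Phgdh (0.95 ± 0.13) and Creb3l2 (0.91 ± 0.09). Each of these was higher in PVN.
Between ARC and NTS they were Slc7a11 (-2.59 ± 0.15), Phgdh (-2.07 ± 0.13) and the serine synthesis gene Psat1 (-1.57 ± 0.12), lower in ARC, and Creb3l1 (2.28 ± 0.17) and Ern1 (1.59 ± 0.12), higher in ARC.

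**Figure D3:**
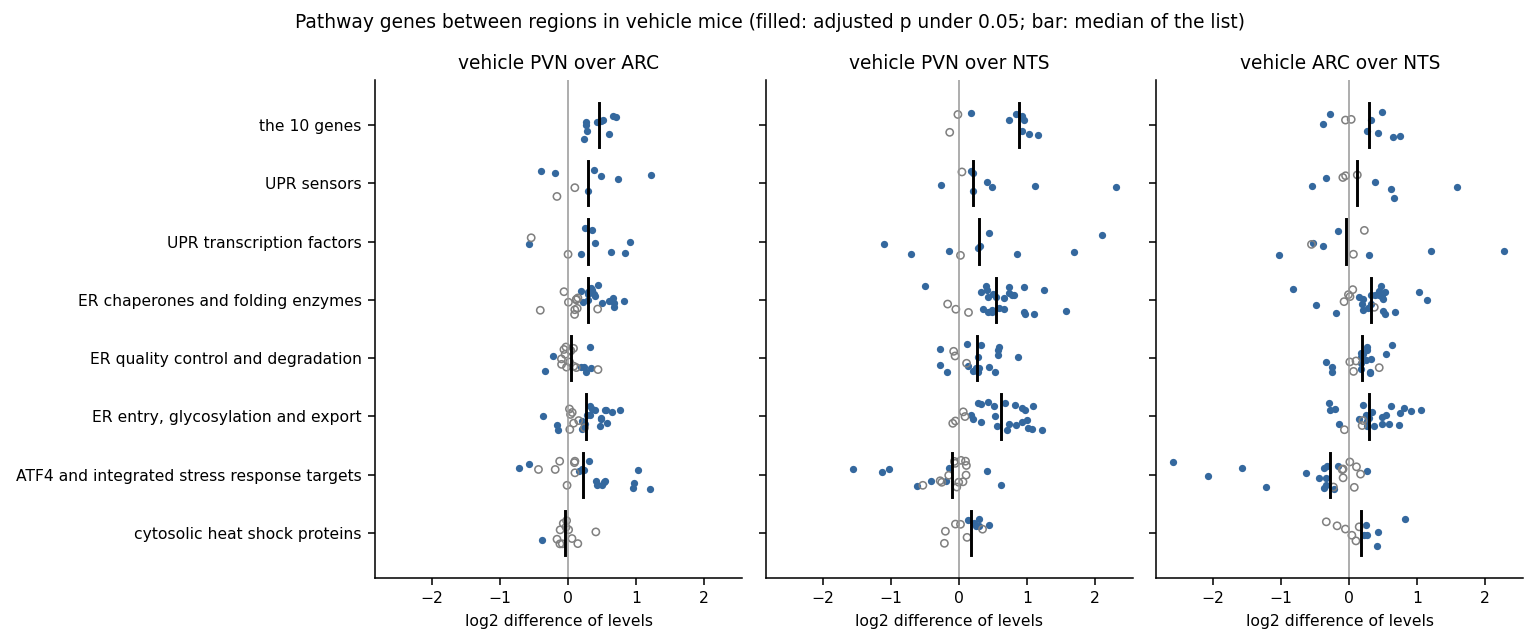
Log2 difference of levels between vehicle groups (x axis) for the 10 genes and the 7 lists of other pathway genes (rows). Points are genes, filled where the adjusted p is under 0.05, and bars are list medians; the ER lists lie right of 0 for PVN over NTS, while the ATF4 targets have a median of -0.10.

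After IP118/PY115 none of the 10 genes passed the test in any region. In the PVN, edgeR called 88 of 13409 genes (0.656%), 71 higher and 17 lower in treated mice, and 0 of the 10. At an unadjusted p under 0.05 there were 2 of the 10, Xbp1 and Hspa5, beside 1253 of all genes (9.34%). In the ARC and the NTS edgeR called 0 of 13484 and 0 of 13696 genes (0% in both), with 971 and 795 genes at an unadjusted p under 0.05 and 0 of the 10 in each. DESeq2 called 0 of the 10 in each region, beside 1.56%, 0.438% and 0.482% of all genes in PVN, ARC and NTS. Limma-voom called Hspa5 in the PVN, beside 4% of all genes, and 0 of the 10 in the ARC and NTS, beside 0.208% and 0.387%.

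In the PVN the point estimates leaned upward. Of the 10, 9 were above 0, with a median log2 difference of 0.10 and a range of -0.01 to 0.15, against a median of -0.02 and 42.4% positive over all genes tested. Of the 124 other pathway genes tested there, 62.9% were positive. By list this ran from 42.9% for the ATF4 targets to 80% for quality control and degradation. The genes were read in the same libraries, so their signs are not separate observations. Hspa5 averaged 1309 ± 84.8 CPM in treated and 1198 ± 103 CPM in vehicle PVN (SD, n = 10 each), a log2 difference of 0.13 ± 0.05 (p = 0.0145, adjusted p = 0.329, edgeR). All 10 treated libraries lay above the vehicle median, and 2 lay above the highest vehicle library. With limma-voom the difference was 0.13 (adjusted p = 0.0297).
Xbp1 had the smallest p of the group. Its lowest, median and highest values were 215, 228 and 239 CPM in treated PVN and 182, 212 and 225 CPM in vehicle PVN. The treated libraries all lay above the vehicle median and 6 of 10 above the highest vehicle library. The log2 difference was 0.13 ± 0.05 (p = 0.0080, adjusted p = 0.255, edgeR), and its adjusted p was 0.101 without the libraries numbered 1.
Creld2 had the largest point estimate, 0.15 ± 0.09 (adjusted p = 0.686, edgeR), at 32.3 ± 2.47 CPM in treated and 29.1 ± 5.55 CPM in vehicle PVN, with all 10 treated libraries above the vehicle median and none above the highest vehicle library. Manf (0.12 ± 0.06), Sdf2l1 (0.12 ± 0.08), Calr (0.09 ± 0.05), Pdia4 (0.09 ± 0.06), Dnajb9 (0.07 ± 0.07) and Hsp90b1 (0.03 ± 0.06) had adjusted p-values of 0.546 to 0.927 with edgeR. Ddit3, the marker of the PERK branch, was at 25.1 ± 2.71 CPM in treated and 25.3 ± 3.41 CPM in vehicle PVN (-0.01 ± 0.08, adjusted p = 0.990, edgeR). With the log10 library total as a covariate the estimates were 0.09 for Hspa5 (p = 0.0859) and 0.09 for Xbp1 (p = 0.0477, edgeR). Oligodendrocyte markers were lower in treated PVN for 7 of 9 genes as point estimates (summed level 538 to 862 CPM in treated and 591 to 902 CPM in vehicle libraries), as were 5 of 6 astrocyte and 4 of 5 neuronal markers, while 5 of 5 red blood cell markers were higher (30.2 to 128 CPM in treated and 35.1 to 66.9 CPM in vehicle libraries). None of these was called. Of the 7 PVN markers 2 were higher as point estimates (median log2 difference -0.05). Of the 7, 1 was called lower, beside 0.127% of all genes. Their summed level was 11944 to 18448 CPM in treated and 9077 to 21815 CPM in vehicle PVN libraries. The part of any of these markers in the result was not tested.

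In the ARC and the NTS the median of the genes lay close to 0. In the ARC 7 of 10 were positive, with a median log2 difference of 0.03 and a range of -0.01 to 0.07, against 1.7e-04 over all genes. Hspa5 averaged 831 ± 71.6 CPM in treated and 836 ± 43.5 CPM in vehicle ARC (-0.01 ± 0.05, adjusted p = 0.979, edgeR). Xbp1 averaged 161 ± 11.8 CPM in treated and 157 ± 7.20 CPM in vehicle ARC (0.04 ± 0.05). Treated ARC library 1 lay above all other treated ARC libraries for Hspa5, Hsp90b1, Manf, Pdia4 and Dnajb9, and below them for Sdf2l1. Oligodendrocyte markers were higher in treated ARC for 9 of 9 genes as point estimates, with a median of 1.04, 3 at an unadjusted p under 0.05 and 0 called; their summed level was 306 to 3938 CPM in treated and 306 to 879 CPM in vehicle ARC, and their part in these values was not tested.
In the NTS 8 of 10 were positive, with a median of 0.03 and a range of -0.04 to 0.14, against 5.3e-04 over all genes. Manf came nearest to the threshold, with a lowest, median and highest level of 63.4, 74.8 and 99.2 CPM in treated and 58.3, 68.1 and 77.2 CPM in vehicle NTS (log2 difference 0.14 ± 0.07, p = 0.0521, adjusted p = 0.868, edgeR). Of the treated libraries 9 of 10 lay above the vehicle median and 2 above the highest vehicle library, 1 of these being library 1. Without the libraries numbered 1 the Manf difference was 0.09, and only 4 of the 10 genes were positive in the NTS, with a median of -0.01. Treated NTS library 1 lay above the 9 other treated libraries for 8 of the 10 genes, Hspa5, Hsp90b1, Calr, Manf, Pdia4, Sdf2l1, Dnajb9 and Xbp1.
In the PVN, without these libraries, 10 of 10 were positive, with a median of 0.11, and 0 were called, beside 3.22% of all genes.

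**Figure D4:**
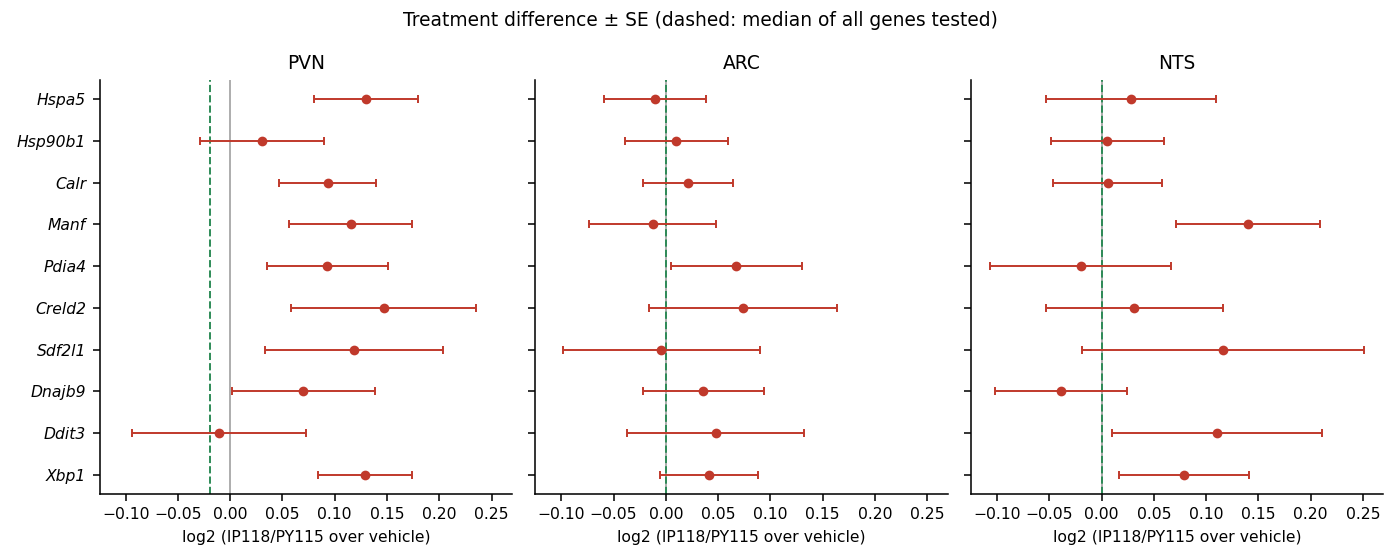
Log2 of IP118/PY115 over vehicle (x axis) for each gene (rows) in the 3 regions, with bars of ± SE and the median of all genes tested as a dashed line. In the PVN 9 of 10 points lie right of 0 by at most 0.15; in the ARC and NTS the points scatter around 0.

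The treatment effect was not shown to differ between regions for any of the genes. The tests of the difference in the joint fit called 0 of the 10 for PVN against ARC, PVN against NTS and ARC against NTS, where 0.0487% (0.0417% higher and 0.00695% lower), 0.0904% (0.0835% higher and 0.00695% lower) and 0% of 14379 genes were called. None of the 10 had an unadjusted p under 0.05 in any pair. DESeq2 and limma-voom also called 0 of the 10. Over all genes DESeq2 called 0.104%, 0.139% and 0.0695%, and limma-voom 0.181%, 0.41% and 0.0209%, in the same order. For Hspa5 the effect in PVN minus that in ARC was 0.14 ± 0.09 (p = 0.135, adjusted p = 0.880, edgeR). PVN minus NTS was 0.10 ± 0.09 (p = 0.277, edgeR). Without the libraries numbered 1, edgeR again called 0 of the 10 in each pair, beside 0.362%, 0.432% and 0.244% of all genes. For PVN against NTS 9 of the 10 were then above 0, and 1 had an unadjusted p under 0.05. Their median was 0.12 there, against 0.07 with all libraries.

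Among the other pathway genes edgeR called 0 of 124 in the PVN, 0 of 125 in the ARC and 0 of 126 in the NTS after treatment. The shares of all genes called were 0.656%, 0% and 0%. At an unadjusted p under 0.05 there were 15, 6 and 11 pathway genes (12.1%, 4.8% and 8.73%). Over all genes these shares were 9.34%, 7.2% and 5.8%. Stt3b, for a catalytic subunit of the oligosaccharyltransferase that glycosylates proteins in the ER, had the smallest p in both hypothalamic regions. It averaged 151 ± 21.4 CPM in treated and 119.5 ± 21.6 CPM in vehicle PVN (log2 difference 0.34 ± 0.09, adjusted p = 0.0992, edgeR), and 125 ± 11.4 CPM in treated and 101 ± 13.2 CPM in vehicle ARC (0.30 ± 0.07, adjusted p = 0.0896, edgeR). The next in the PVN were Vldlr, a lipoprotein receptor gene that ATF4 induces (0.33 ± 0.10), Kdelr2, for a receptor that returns ER proteins (0.17 ± 0.06), the signal peptidase gene Spcs3 (0.18 ± 0.06) and the disulfide isomerase gene Txndc5 (0.12 ± 0.04), none of them called.
In the ARC the next were Creb3l2 (0.30 ± 0.09), the oligosaccharyltransferase subunit Dad1 (-0.16 ± 0.06), Herpud1 of ER-associated degradation (0.15 ± 0.06) and the vesicle coat gene Sec24d (0.19 ± 0.08), none called. In the NTS the 5 smallest p-values were those of the transcription factor Cebpb (0.53 ± 0.15), Slc7a5 (0.17 ± 0.05), the mitochondrial folate enzyme Mthfd2 (0.30 ± 0.10), Creb3l2 (0.25 ± 0.08) and Herpud1 (0.15 ± 0.05), none called.
Without the libraries numbered 1, edgeR called 6 of 124 in the PVN, 3 of 125 in the ARC and 4 of 126 in the NTS, beside 429, 153 and 162 of all genes (3.22%, 1.14% and 1.18%). In the PVN these were Stt3b (0.45 ± 0.07), Vldlr (0.43 ± 0.09), Ddit4, a stress-induced inhibitor of mTORC1 (0.29 ± 0.08), Spcs3 (0.22 ± 0.06) and Kdelr2 (0.20 ± 0.05), higher in treated mice, and Eif2ak3 (-0.30 ± 0.08), lower. In the ARC they were Stt3b (0.37 ± 0.06), Creb3l2 (0.38 ± 0.08) and Ddit4 (0.35 ± 0.09), and in the NTS Cebpb (0.60 ± 0.15), Mthfd2 (0.39 ± 0.09) and Ddit4 (0.36 ± 0.09), higher, and Slc7a11 (-0.49 ± 0.12), lower. Ddit4 and Eif2ak3 in the PVN, Ddit4 in the ARC and Ddit4 and Slc7a11 in the NTS were named after their values were seen.

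Within groups, the chaperone genes varied together from library to library. After the mean of each of the 6 groups was removed, the 45 pairs of genes had a median Pearson r of 0.39 over 59 libraries (range -0.12 to 0.73), with 40 pairs above 0. The mean r was 0.33 over these pairs and 0.0020 over all pairs of the 14379 genes tested. In permutations within groups, 23 of 45 pairs had an adjusted p under 0.05 by Pearson's r and 22 by Spearman's rho. Libraries from the same animal and the scaling shared by all genes of a library enter each of these values.

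The 4 highest values involved Hspa5. Its r was 0.73 with Hsp90b1 (rho 0.73; adjusted p = 7.5e-05 by permutation, from the smallest p that 100000 resamples can give), 0.69 with Pdia4 (rho 0.60), 0.68 with Manf (rho 0.62), 0.64 with Dnajb9 (rho 0.61) and 0.59 with Xbp1 (rho 0.60). Without the 2 libraries farthest from the median, r with Hsp90b1 was 0.69. The pair held in each region, with r of 0.79 in PVN (n = 20), 0.70 in ARC (n = 19) and 0.80 in NTS (n = 20).
Calr, Creld2 and Sdf2l1 also varied together, more loosely. Their r was 0.55 between Creld2 and Sdf2l1 (rho 0.54), 0.53 between Calr and Creld2 (rho 0.53) and 0.50 between Calr and Sdf2l1 (rho 0.45), each with an adjusted p under 0.05 by permutation. Each also passed by Pearson's r with other genes of the group. Calr did so with Hspa5, Manf, Pdia4 and Xbp1 (r 0.40 to 0.45). Sdf2l1 did with Pdia4 and Manf (r 0.40 and 0.39), and Creld2 with Manf (r 0.39). By Spearman's rho, Calr with Xbp1 and Sdf2l1 with Manf did not pass. With Hspa5, Calr had an r of 0.45 over all libraries, and in NTS an r of 0.82 (rho 0.75). In ARC its r was 0.42 and its rho 0.15, and in PVN its r was -0.28 and its rho 0.19, so the sign in PVN depended on the measure. No pair with Ddit3 passed, and its r with Hspa5 was 0.05.

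**Figure D5:**
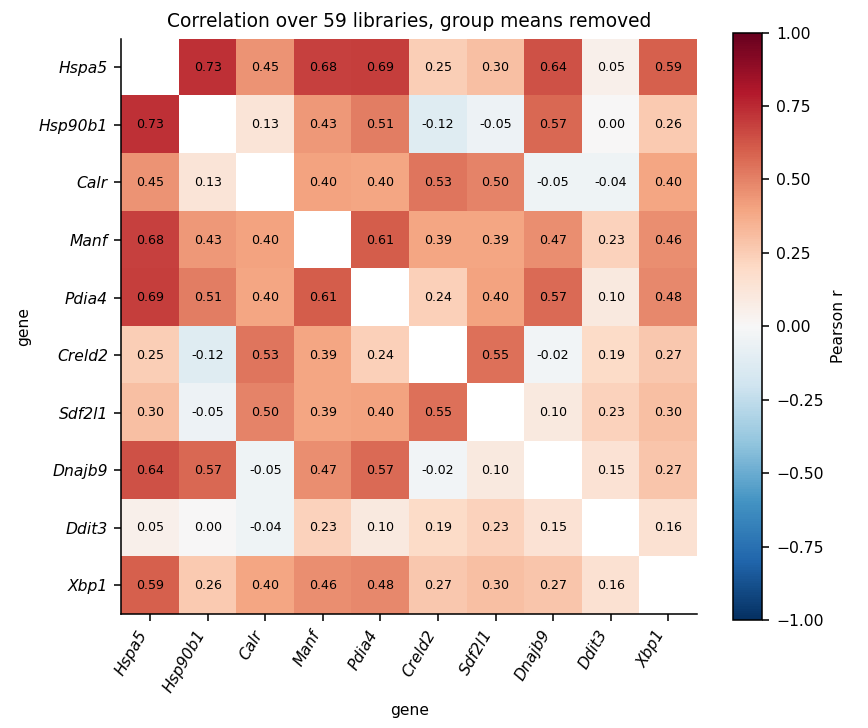
Pearson r between genes (both axes) over 59 libraries, with the mean of each region and treatment group removed; red is positive and blue negative. Hspa5, Hsp90b1, Pdia4, Manf and Dnajb9 form the reddest block, up to 0.73, while the Ddit3 row stays at or below 0.23.

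These relations differed in strength by region and by library. The median r of the 45 pairs was 0.11 within PVN, 0.30 within ARC and 0.54 within NTS, and 0.25 over all regions without the libraries numbered 1. Of 5 measures set against Hspa5, it moved with the markers of the dissected nucleus (r 0.46, rho 0.40; adjusted p = 0.0092 and 0.0074, permutation test) and against the neuronal markers (r -0.41, rho -0.40; adjusted p = 0.0092 and 0.0062) and the oligodendrocyte markers (r -0.37, rho -0.42; adjusted p = 0.0113 and 0.0062). Without the 2 farthest libraries these were 0.42, -0.24 and -0.27. The relation with the astrocyte markers was r -0.12 and that with the log10 library total r 0.19, with adjusted p-values of 0.420 and 0.258 by permutation. Without the 2 farthest libraries they were -0.28 and 0.25. The astrocyte value was then no nearer to 0 than the neuronal and oligodendrocyte ones. How far the mix of cells caught in a dissection sets the relations among the genes was not tested.

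The genes whose pattern over the 59 libraries was most like that of Hspa5 were then listed from 14378 genes by Pearson r. They were Pdia6 (0.80), for a disulfide isomerase whose promoter holds the same element as that of Hspa5, AW551984 (0.74), Gprasp2 (0.73), for a sorting protein of receptors, Hsp90b1 (0.73), the disulfide isomerase gene Pdia3 (0.73), Pdia4 (0.69), Manf (0.68), Pgap1 (0.68), for an ER enzyme that remodels GPI anchors, the adaptor gene Grb10 (0.68) and the chromatin remodeller gene Smarca1 (0.67). Of these 10, 3 belonged to the group and 5 to the ER lists including the group. Besides Hspa5 the group held 9 genes, and the lists including the group held 136 tested genes, Hspa5 among them, beside the 14378 ranked. Dnajb9 ranked 18, Xbp1 39, Calr 271, Sdf2l1 1224, Creld2 1933 and Ddit3 6046. Of the members with the element in their promoter besides Hspa5, Hsp90b1 ranked 4, Calr 271 and Creld2 1933. Of the members in whose promoter it was not found, Pdia4 ranked 6, Dnajb9 18, Xbp1 39, Sdf2l1 1224 and Ddit3 6046. Pdia6 and Canx, which hold it outside the group, ranked 1 and 14. Whether the element bears on these ranks was not tested.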

How the data were processed

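Laser-captured PVN, ARC and NTS from C57BL/6 mice were sequenced as polyA RNA with a stranded kit, per the labels' protocols. The authors deposited raw read counts, listed by Ensembl ID, with bcl2fastq 2.20.0.422, STAR 2.5.2a and GRCm38 named in the submitters' processing notes. The read counter, its strand setting and the annotation release are not given in the sources used here. Symbols, coordinates and exon lengths came from GENCODE M21 (21858 of 21935 IDs matched), and promoters from RefSeq.

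Groups follow the labels, which tie no library to an animal; replicates are numbered in the order of deposition. Whether libraries of a group came from separate cages or batches is not stated, so p-values measure the spread between these libraries; PCR duplicates were not told apart. With edgeR 4.0.16 in R 4.3.3 (filterByExpr with a minimum count of 10 and a minimum total of 15, TMM scaling, robust quasi-likelihood, two-sided tests), treatment was tested within each region, and regions and differences of effect in 1 joint fit of the 59 libraries in 6 groups. Benjamini-Hochberg adjustment ran over all genes tested, with calls at 0.05. Levels are CPM on TMM-adjusted totals over the 59 libraries, divided by exon length where genes are compared. DESeq2 1.42.0 and limma-voom of limma 3.58.1 with quality weights were alternatives. Correlations used log2 CPM with 100000 permutations within groups.

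The 10 genes and the lists were chosen with earlier results of these data known. Besides the 10, the text names the 5 pathway genes of smallest treatment p per region, the 5 called with the largest difference at a mean of at least 5 CPM per vehicle contrast, the 10 genes most correlated with Hspa5, and Fosb and Zbtb16 as checks. The covariates for neuronal and oligodendrocyte markers, the treated libraries in place of vehicle ones and the pathway calls without the libraries numbered 1 were added after seeing the data. Marker lists for microglia (205 to 424 CPM summed over the libraries of all groups), choroid plexus (19.2 to 86.6), tanycytes and ependymal cells (10.5 to 83.5) and red blood cells (4.95 to 213) are given here only.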

Additional observations from a re-analysis of the deposited data

Results flagged for a closer look

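In each gene and group the highest and lowest libraries were compared with the rest by the size of their gap over the range of the group, and 10 of 60 groups had a library far from the others, where chance flags about 1 in 20. Treated NTS library 1 was the highest of its group for Manf, at 99.2 CPM with the next at 77.7 CPM, for Pdia4, at 97.8 CPM with the next at 72.8 CPM, and for Sdf2l1, at 28.8 CPM with the next at 20.9 CPM. PVN vehicle library 10 was the highest for Hsp90b1, at 1363 CPM with the next at 1124 CPM, and the lowest for Calr, at 402 CPM with the next at 482 CPM, so 2 ER chaperone genes stood apart in opposite directions in 1 library. ARC vehicle library 6 was the highest for Manf, at 130.0 CPM with the next at 118 CPM, and for Creld2, at 32.2 CPM with the next at 26.3 CPM.

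NTS vehicle library 3 was the highest for Hsp90b1, at 657 CPM with the next at 573 CPM. PVN treated library 9 was the lowest for Pdia4, at 101 CPM with the next at 116 CPM. ARC treated library 8 was the highest for Ddit3, at 29.2 CPM with the next at 22.9 CPM. The causes were not tested.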

How the results depend on the processing

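No paired analysis was possible because the labels carry no replicate numbers and tie no library to an animal. The number of genes called in the PVN, 88, was 209 with DESeq2, 537 with limma-voom, 175 at an adjusted p under 0.1, 6 with the log10 library total as covariate, 12 with covariates for oligodendrocyte and region markers, 429 without the libraries numbered 1, 9 without libraries of low total and 12 without the vehicle libraries numbered 5553 to 5557 in the labels, apart from the rest of their region. It was 8 to 276 with 1 library left out. In the ARC, where 0 were called, the counts were 59 with DESeq2, 28 with limma-voom, 14 at 0.1, 16 with the marker covariates, 153 without the libraries numbered 1 and 0 to 85 with 1 library left out. In the NTS, also with 0, they were 66, 53, 6, 4, 162 and 0 to 92 in the same order. Of the 10 genes, limma-voom called 1 in the PVN, and every other alternative and left-out library gave 0 in all 3 regions. Between vehicle ARC and NTS, 8 were called, and 1 with neuronal and oligodendrocyte marker covariates, where the added terms take up part of the regional difference in those markers. Creld2, Ddit3, Calr, Hspa5, Hsp90b1, Sdf2l1, Dnajb9 and Xbp1 each lost a regional call under 1 or more alternatives.

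Treatment estimates near 0, none of them called, changed sign as follows (log2, IP118/PY115 over vehicle). In the PVN, Hsp90b1 was -0.0071 with the log10 total and -0.0094 without libraries of low total, and Ddit3 was 0.034 with limma-voom and 0.033 without the libraries numbered 1. In the ARC, Sdf2l1 was 0.000862 with a filter of 20 counts in 9 libraries, 0.000419 with DESeq2, 0.000686 with RLE size factors, 0.0095 with the log10 total, 0.036 with the marker covariates, 0.0055 without libraries of low total, 0.041 without the libraries numbered 1 and 0.040 without libraries 5553 to 5557. There Hsp90b1 was -0.0012 with limma-voom, -0.0039 without the libraries numbered 1 and -0.0097 without 5553 to 5557, Manf 0.000274 with limma-voom and 0.0066 with the marker covariates, Calr -0.0027 with the log10 total, and Dnajb9 -0.023 without 5553 to 5557. In the NTS, Hsp90b1 was -0.0095 with limma-voom, -0.0054 with the log10 total and -0.016 without the libraries numbered 1, Calr -0.0027 with the log10 total and -0.017 without the libraries numbered 1, Hspa5 -0.0097 and Sdf2l1 -0.0089 without the libraries numbered 1, and Pdia4 0.0039 with the marker covariates. Between vehicle groups, Creld2 for PVN over NTS was 0.0021 with the filter of 20 counts and 0.10 in treated libraries, and Pdia4 for ARC over NTS was -0.18 with the neuronal and oligodendrocyte covariates and -4.6e-06 without the libraries numbered 1. The causes were not tested.

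With 1 library left out, estimates ranged from -0.041 to 0.023 for Ddit3 in the PVN. In the ARC they ranged from -0.035 to 0.021 for Hspa5, -0.014 to 0.038 for Hsp90b1, -0.045 to 0.035 for Sdf2l1, -0.038 to 0.027 for Manf and -0.0032 to 0.081 for Ddit3. In the NTS they ranged from -0.020 to 0.037 for Hsp90b1, -0.023 to 0.026 for Calr, -0.026 to 0.060 for Hspa5, -0.0095 to 0.073 for Creld2 and -0.095 to 0.0016 for Pdia4. Across the alternatives and left-out libraries, the adjusted p of Hspa5 in the PVN ran from 0.0297 to 0.834 and that of Xbp1 from 0.0872 to 0.721. The median correlation of the 45 pairs, 0.39, was 0.43 with library totals alone and 0.25 without the libraries numbered 1. With about 10 libraries a group, the SE of a treatment estimate of the 10 genes was 0.04 to 0.13 on the log2 scale. Changes of that size were not detectable here, and larger ones could also go uncalled. Stt3b in the PVN, at 0.34 ± 0.09, was not called (adjusted p = 0.0992, edgeR).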

Other observations

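The ER stress response element was also followed outside the 10 genes. Of the genes with it that are not among the 10, 17 were tested between regions: 5 were higher and 1 lower in vehicle PVN than in ARC, 8 higher and 3 lower in PVN than in NTS, and 6 higher and 3 lower in ARC than in NTS, where 24.8% and 21.1%, 28.3% and 27.8%, and 30.2% and 31.5% of all genes were called higher and lower. Of these 17, the 6 on the ER lists (Canx, Derl3, Dnajc3, Pdia6, Syvn1 and Ero1b) held 4, 6 and 4 of the higher calls and none of the lower ones. The other 11 had 1 higher and 1 lower, 2 higher and 3 lower, and 2 higher and 3 lower, with median log2 differences of 0.07, -0.25 and -0.21. The medians of the 17 were 0.23, 0.32 and 0.05, against 0.39, 0.55 and 0.13 for the 4 among the 10 that hold it. After IP118/PY115, edgeR called 0 of these 17 in the NTS and 0 of the 16 tested in the PVN and in the ARC, with median log2 differences of 0.0045, 0.02 and 0.0086.

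The genes were counted deeply in every library. The lowest counts in any library were 95 for Creld2 and for Ddit3 and 111 for Sdf2l1, and the highest 22375 for Hspa5. The spread within a group was smallest for Xbp1 in treated PVN, with a coefficient of variation of 4.01%, and largest for Sdf2l1 in treated NTS, at 25.5%.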
